A study of Mus musculus with 8 samples.

Results

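The response of mouse liver to repeated LPS was compared between ApoE-Cyp7a1 transgenic and wild-type mice. For each gene the interaction was taken, which is the LPS change in transgenic liver minus the LPS change in wild-type liver. A positive interaction means that the change with LPS was more upward, or less downward, in the transgenic mice. Genes were taken by level alone. Those that reached 1 FPKM in 2 or more of the 8 libraries were tested, which left 11463 of 17294 features with a value above 0 in a table of 24545 rows. FPKM is a fragment density per length of transcript and per mapped fragments. Changes are differences of log2(FPKM + 1), a scale that understates the change of genes with low values.

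RNA from whole liver of male C57Bl/6J mice was sequenced in 8 libraries, in 4 groups of 2 that the authors call biological replicates. Wild-type mice and mice with the ApoE-Cyp7a1 transgene, described as liver specific, were either left without LPS or injected with it daily at 1.5 mg/kg for 7 days. The age of the mice, the time of day and feeding state at collection, and any vehicle injection of the untreated mice were not given in the sources used here. With 2 libraries a group, p-values measure only the spread between these libraries.

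LPS is an endotoxin of the bacterial outer membrane that is sensed through Toll-like receptor 4 and sets off cytokine release, the hepatic acute phase response and the secretion of adrenal glucocorticoids. Glucocorticoids act on hepatocytes through a nuclear receptor that raises genes of amino acid breakdown and gluconeogenesis, many of which also rise in fasting. Cyp7a1 turns cholesterol into bile acids and sets the rate of that pathway, and cells short of cholesterol raise the genes of its synthesis through the transcription factor SREBP2.

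FPKM summed to 500765 to 580051 per library without LPS and to 406668 to 469644 with LPS, and the lowest sum was that of transgenic LPS replicate 1. The SD of the log2 difference between the replicates of a group, over all genes tested, was 0.484 in untreated wild type, 0.467 in transgenic with LPS, 0.314 in untreated transgenic and 0.233 in wild type with LPS. Hepatocyte genes were abundant in every library, with a sum of 19159 to 31093 FPKM over 23 listed genes, although Alb is listed at 0 in all 8 libraries. Genes of the exocrine pancreas were also measured in these liver libraries, at levels that differed widely between replicates, and are described with the genes that were lower. The Cyp7a1 row was at 24.9 and 49.1 FPKM in untreated wild type, 19.9 and 27.9 FPKM in wild type with LPS, 64.7 and 78.5 FPKM in untreated transgenic and 73.5 and 70.2 FPKM in transgenic with LPS. All 4 transgenic libraries were above all 4 wild-type libraries.

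Most of the LPS response was shared by the genotypes. With LPS, 2481 genes (21.6%) changed in wild type and 3034 genes (26.5%) changed in transgenic liver in limma at a Benjamini-Hochberg adjusted p under 0.05. Both tests called 1787 of them, and 1774 of those moved in the same direction. Across the 11463 genes the LPS changes of the genotypes, which come from separate libraries, had a Pearson r of 0.747 and a Spearman rho of 0.638. Genes are not independent replicates, so no p is attached to these.

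Differences between the responses were many in size and few in the test. An interaction of 2-fold or more was measured for 246 genes that were higher in transgenic (2.15% of all genes tested) and for 294 genes that were lower (2.56%). The responses were separate, with each of the 4 pairings of an LPS with an untreated library in one genotype beyond all 4 pairings in the other, for 196 of the higher genes (1.71%) and 223 of the lower genes (1.95%). Without regard to size, 1337 genes (11.7%) had separate responses in the upward and 1762 genes (15.4%) in the downward direction. In limma's test of the interaction with Benjamini-Hochberg adjustment, 0 genes (0%) passed as higher and 1 gene (0.00872%) passed as lower. At an unadjusted p under 0.05, limma called 497 genes higher (4.34%) and 692 lower (6.04%). The median SE of an interaction was 0.252, and the SD of the interactions over all genes was 0.524.

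Genes with a large interaction mostly started apart between the genotypes and ended apart the other way. Of the 246 higher genes, 204 had a mean that was lower with LPS in wild type and higher with LPS in transgenic liver, and 225 were below wild type in untreated transgenic liver and above it with LPS. Their median change with LPS was -0.57 in wild type and 0.91 in transgenic liver, and their median gap between transgenic and wild type was -0.62 without LPS and 0.84 with it. The 294 lower genes were the reverse in level, with 234 above wild type in untreated transgenic liver and below it with LPS. Their median change was 0.19 in wild type and -1.23 in transgenic liver. Because each interaction holds the untreated gap and the LPS gap together, these counts describe its make-up and are not further evidence for it.

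**Figure D1:**
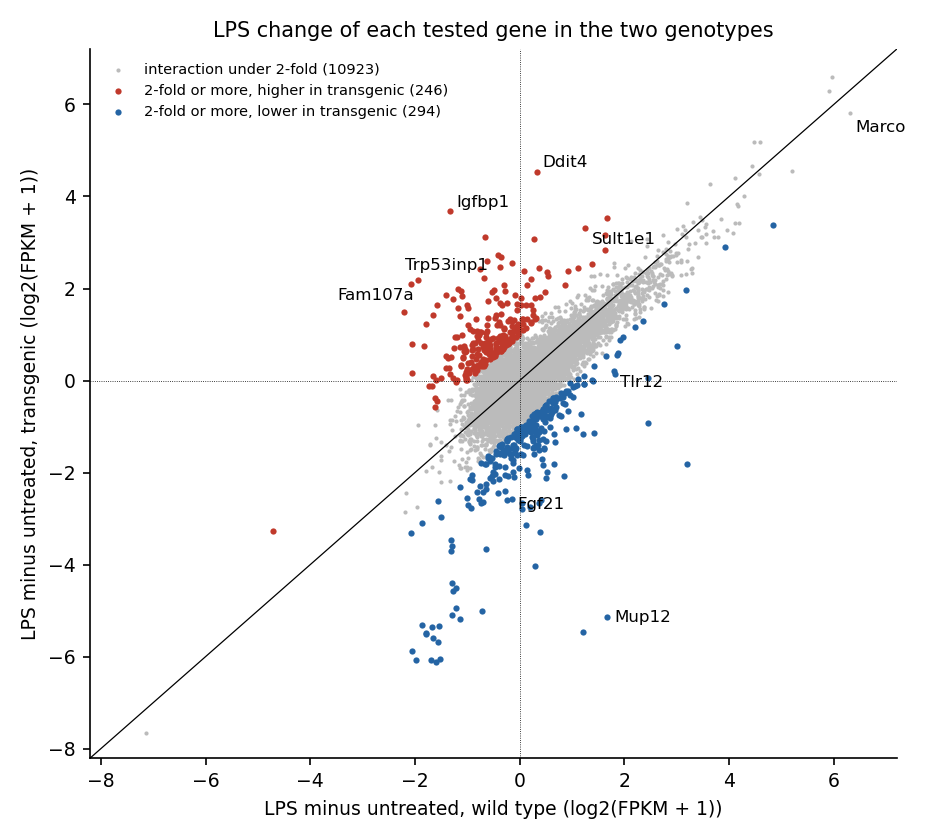
Change with LPS in wild type (x axis) against transgenic liver (y axis), both as differences of log2(FPKM + 1), for the 11463 genes tested, with the line of equal change. The 246 higher (red) and 294 lower (blue) genes lie 2-fold or more from that line, and most of the red points lie left of 0 and above 0.

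The gene that passed is a member of a cluster of near-identical copies, and its value is uncertain. Mup12, a major urinary protein gene that was chosen after its values were seen, is listed at 0 in both untreated wild-type libraries, and was at 2.76 and 1.66 FPKM in wild type with LPS, at 38.2 and 89.9 FPKM in untreated transgenic liver and at 0.298 and 1.20 FPKM in transgenic with LPS. Its interaction was -6.80 (SE 0.58, limma adjusted p = 0.0422), and 8 of 19 alternative analyses kept it past the threshold, over an adjusted p of 0.00242 to 0.318. The major urinary protein genes share most of their sequence, so the counting can split reads among copies, and other copies were listed at 0 or measured in the same libraries. No fold is given against a group listed at 0.

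In 13 genes (0.727% of the 1787) the LPS changes of the genotypes both passed and had opposite signs. They were Mup12, Fam107a, Gadd45b, Upp2, Fam134b, Slc25a51, Ip6k2, Trp53inp1, Il1r1, Srebf1 and, chosen after their values were seen, Ipmk, Scara5 and the shared row Ankhd1/Eif4ebp3. All of them but Mup12 and Srebf1 fell in wild type and rose in transgenic liver. Their roles are diverse: Il1r1 is the signalling receptor for interleukin 1, Ipmk and Ip6k2 are inositol phosphate kinases, Scara5 is a ferritin receptor and Eif4ebp3 is a translation repressor. The interaction of each of the 12 genes other than Mup12 did not pass over all genes.

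Fam107a, an actin-associated protein known to be induced by glucocorticoids and stress (chromosome 14, 8296274 to 8318023), had the smallest p among the higher genes. It was at 11.8 and 18.6 FPKM in untreated wild type, 3.44 and 5.34 FPKM in wild type with LPS, 3.37 and 3.68 FPKM in untreated transgenic and 12.2 and 14.1 FPKM in transgenic with LPS. Untreated wild type and transgenic with LPS were thus the high groups, and neither overlapped the low groups. It fell by 1.58 in wild type (SE 0.24, limma adjusted p = 0.00307) and rose by 1.64 in transgenic liver (limma adjusted p = 0.00288). The interaction was 3.22 (SE 0.34, limma adjusted p = 0.0793, range over 19 alternatives 0.0191 to 0.575), and it was 3.13 with transgenic LPS replicate 1 alone and 3.32 with replicate 2 alone.

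Gadd45b, a growth arrest and DNA damage-inducible gene (chromosome 10, 80930073 to 80932204), followed the same order of groups. Its 4 groups held 8.24 and 9.09 FPKM, 3.03 and 3.46 FPKM, 3.18 and 1.70 FPKM, and 8.46 and 9.62 FPKM, in the order untreated wild type, wild type with LPS, untreated transgenic and transgenic with LPS. Its interaction was 2.76 (SE 0.30, limma adjusted p = 0.0793, range over 19 alternatives 0.0129 to 0.712). It was the next gene by p.

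The promoters of these leading genes are shown as RefSeq gives them for GRCm38.p6, from 250 bases before to 50 bases after the annotated start, read 5′ to 3′ on the strand of the gene. The windows were searched on both strands for 7 motifs, and capitals mark a match. Fam107a has 3 such windows, of which 2 overlap almost wholly and hold the same match. The window at chr14:8309730-8310029 on the minus strand holds a match to the glucocorticoid response element, a pair of inverted half-sites with a short spacer, that begins 118 bases before the start, a motif found in 0.475% of 32851 mouse promoters. The window of Gadd45b at chr10:80929841-80930140 on the plus strand holds an E-box (CACGTG), found in 7.15% of them. Among 11534 promoters of tested genes these shares were 0.329% and 9.88%.
Fam107a: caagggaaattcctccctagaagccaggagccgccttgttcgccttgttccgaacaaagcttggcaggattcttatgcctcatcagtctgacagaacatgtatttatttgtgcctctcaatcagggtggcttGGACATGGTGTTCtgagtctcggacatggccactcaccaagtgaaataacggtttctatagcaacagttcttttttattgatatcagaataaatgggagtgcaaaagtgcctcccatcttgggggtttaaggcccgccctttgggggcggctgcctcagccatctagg
Gadd45b: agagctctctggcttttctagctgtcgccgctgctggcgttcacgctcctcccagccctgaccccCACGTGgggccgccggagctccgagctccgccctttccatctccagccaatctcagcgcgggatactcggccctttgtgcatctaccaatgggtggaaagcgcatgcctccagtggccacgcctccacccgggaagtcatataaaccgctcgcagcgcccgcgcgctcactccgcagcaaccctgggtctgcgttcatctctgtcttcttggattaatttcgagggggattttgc
A match is a description of the letters and not a measured site. The windows of Upp2, Tlr12 and the Kansl2 row held none of the 7 motifs, and 1 of 2 windows of Tjp3 held an E-box (the others were forkhead TGTTTAC, cAMP response element TGACGTCA, C/EBP TTATGCAAT, STAT TTCNNNGAA and NF-kB GGGACTTTC).

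The other leading higher genes were enzymes, transporters and regulators of the hepatocyte. Upp2, a liver uridine phosphorylase, was at 313 and 281 FPKM in untreated wild type, 134 and 176 FPKM in wild type with LPS, 58.2 and 57.4 FPKM in untreated transgenic and 122 and 131 FPKM in transgenic with LPS. Its interaction was 2.06 (SE 0.25, limma adjusted p = 0.11), and here untreated wild type stood above all other groups. Sult1e1, the oestrogen sulfotransferase, rose in both genotypes, from 5.99 and 9.55 FPKM to 18.1 and 21.1 FPKM in wild type and from 1.03 and 0.947 FPKM to 17.7 and 20.0 FPKM in transgenic liver. The groups with LPS overlapped, and the interaction of 2.06 (SE 0.29, limma adjusted p = 0.181) held the lower untreated level of the transgenic mice.

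Fam134b, a receptor for the autophagy of the endoplasmic reticulum, was at 285 and 155 FPKM in transgenic with LPS against 60.02 and 61.0 FPKM in untreated transgenic, and its interaction was 3.06 (SE 0.44). Acacb, the acetyl-CoA carboxylase of the mitochondrial surface, fell in wild type from 9.28 and 9.40 FPKM to 3.10 and 2.91 FPKM, with 7.74 and 6.67 FPKM in untreated transgenic and 12.4 and 8.88 FPKM in transgenic with LPS. Cdkn1a, the cell cycle inhibitor p21, fell in wild type from 34.6 and 53.5 FPKM to 13.8 and 17.5 FPKM, and was at 22.2 and 17.8 FPKM in untreated transgenic and 27.8 and 30.9 FPKM in transgenic with LPS. Slc10a6 (a transporter of steroid sulfates), Nipal1 (a magnesium transporter), Slc25a51 (the mitochondrial NAD carrier), Ip6k2 and Csrp3 completed the 12, with interactions of 1.23 to 3.13 and limma adjusted p of 0.223 to 0.271. Each of these 12 genes was above 0 in all of the alternatives in which it was tested. They were chosen for separate responses, so leaving out a library could not change their sign, and this is not further evidence.

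The 12 leading lower genes included receptors, transcription factors and cell junction proteins. Tlr12, a Toll-like receptor of the mouse (chromosome 4, 128615443 to 128618619), rose in wild type from 1.54 and 1.55 FPKM to 8.76 and 7.01 FPKM. In transgenic liver it was at 2.66 and 3.62 FPKM without LPS and at 3.44 and 4.14 FPKM with it, groups that overlapped. The interaction was -1.58 (SE 0.24, limma adjusted p = 0.224), with -1.69 from transgenic LPS replicate 1 and -1.47 from replicate 2.

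Srebf1, the gene of the lipogenic transcription factor SREBP1, rose in wild type from 9.70 and 6.32 FPKM to 14.3 and 14.1 FPKM. It fell in transgenic liver from 15.5 and 15.9 FPKM to 7.25 and 10.4 FPKM, and its interaction was -1.56 (SE 0.31, limma adjusted p = 0.294). Foxa1, a pioneer transcription factor of the hepatocyte, fell in transgenic liver from 7.05 and 10.9 FPKM to 2.21 and 3.03 FPKM, and was at 5.26, 3.65, 5.11 and 5.90 FPKM in the 4 wild-type libraries. Tjp3, the tight junction protein ZO-3, fell in transgenic liver from 9.37 and 9.20 FPKM to 3.37 and 4.35 FPKM, and was at 4.43 to 6.06 FPKM in wild type.

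A row shared by Kansl2 and the small RNAs Mir1291 and Snora34 had the smallest p of the 12. It was at 24.3 and 15.8 FPKM in untreated transgenic liver and at 2.28 to 2.96 FPKM in the other 6 libraries, so that which gene it reports is uncertain. Sh3bp2, Dclk3, Zbtb12, Tmem14a, Rassf3, Asap3 and Kifc3 had interactions of -1.51 to -1.04 with limma adjusted p of 0.285 to 0.294. All 12 were below 0 in each alternative in which they were tested. Their choice by separate responses likewise fixed the sign when a library was left out.

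**Figure D2:**
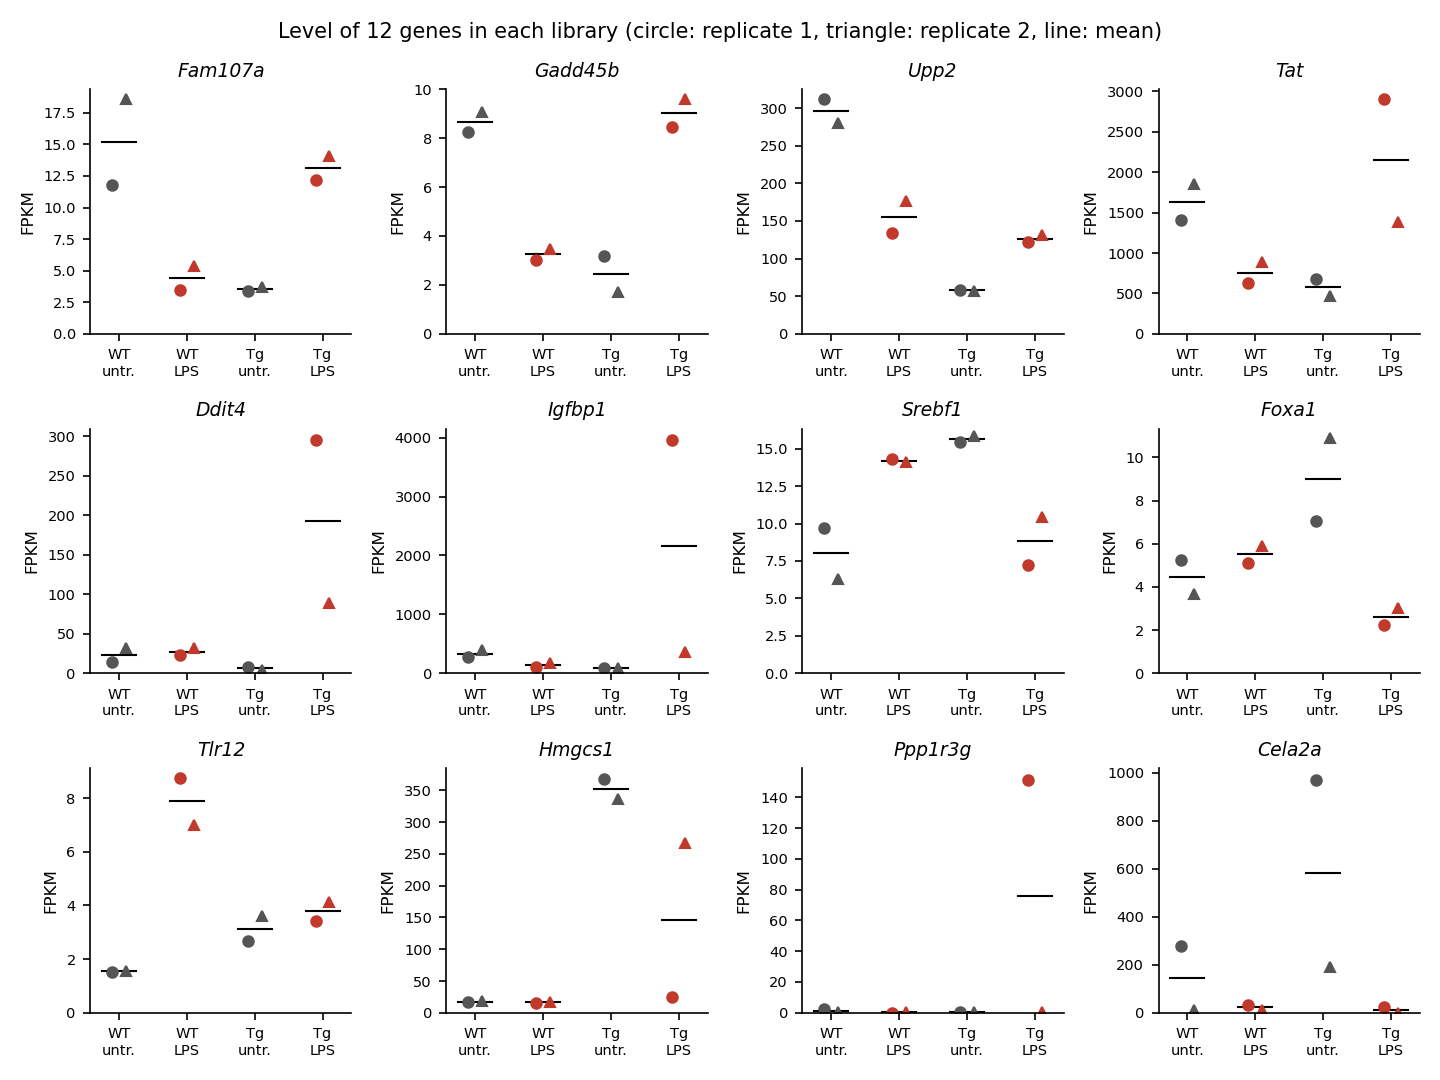
FPKM of 12 genes in each library (y axes, linear and from 0), by group (WT, wild type; Tg, transgenic; untr., untreated), with replicate 1 as circles, replicate 2 as triangles and the mean as a line. Fam107a, Gadd45b and Tat are high in untreated wild type and transgenic with LPS, and for Igfbp1, Ppp1r3g and Hmgcs1 the transgenic LPS replicates lie far apart.

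Genes induced by glucocorticoids and fasting were the list with the largest share of higher interactions among lists with more than 10 members tested. All 27 listed genes were tested, all 27 had an interaction above 0, and 19 reached 2-fold in the higher direction and 0 in the lower, beside 2.15% and 2.56% of all genes. The responses of 16 of the 27 were separate and reached 2-fold, beside 1.71% of all genes. The median interaction was 1.42, against -0.06 over all genes tested. None of the 27 passed singly in limma with Benjamini-Hochberg adjustment over all genes, while 20 had an unadjusted p under 0.05, beside 4.34% of all genes in that direction. The mean of each of the 27 was below wild type in untreated transgenic liver, and that of all but Klf9 was above wild type with LPS. At a limma adjusted p under 0.05, 12 of the 27 rose with LPS in transgenic liver, where 26.5% of all genes changed in either direction. In wild type, where 21.6% of all genes changed, Errfi1 and Cdkn1a passed as lower and none passed as higher. Sgk1 was higher with LPS in wild type as well, without passing. That members passed as higher in one genotype and not in the other was not tested as a list. The list was chosen with earlier results of these data known, so its counts beside all genes are descriptions and not support. A smaller list, of genes higher in female liver, had a larger share, 5 of 6 tested.

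The largest members were effectors of growth and energy restraint. Igfbp1, a secreted binding protein of insulin-like growth factors, was at 269 and 393 FPKM in untreated wild type, 99.4 and 166 FPKM in wild type with LPS, 94.9 and 90.6 FPKM in untreated transgenic, and 3961 and 364 FPKM in transgenic with LPS. Transgenic LPS replicate 1 was far above replicate 2, which lay within the range of untreated wild type. The interaction was 5.02 (SE 1.31, limma adjusted p = 0.41), 6.74 with replicate 1 alone and 3.30 with replicate 2 alone. Ddit4, an inhibitor of mTORC1 signalling, was at 295 and 89.3 FPKM in transgenic with LPS and at 4.52 to 32.5 FPKM in the other 6 libraries, and its interaction was 4.21 (SE 0.83, limma adjusted p = 0.294).

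Enzymes and regulators of amino acid and glucose metabolism showed the crossed order of groups. Tat, tyrosine aminotransferase and a classical glucocorticoid target, was at 1403 and 1857 FPKM in untreated wild type, 632 and 884 FPKM in wild type with LPS, 684 and 463 FPKM in untreated transgenic and 2908 and 1388 FPKM in transgenic with LPS. Its interaction was 2.94 (SE 0.55, limma adjusted p = 0.285), 3.48 with replicate 1 alone and 2.41 with replicate 2 alone. Lpin1, a phosphatidate phosphatase that also coactivates fasting genes, had an interaction of 3.17 (SE 0.61), Got1, the cytosolic aspartate aminotransferase, one of 2.86 (SE 0.74), and Ppargc1a, the coactivator PGC-1alpha, one of 2.37 (SE 0.77). The interaction of Ppargc1a was 3.40 with transgenic LPS replicate 1 alone and 1.34 with replicate 2 alone, and that of Got1 was 3.83 and 1.88. Got1 was at 1379 FPKM in transgenic LPS replicate 1 and 358 FPKM in replicate 2, against 122 to 347 FPKM elsewhere.

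Established targets of the glucocorticoid receptor were in the list as well. Tsc22d3, which encodes the glucocorticoid-induced leucine zipper, was at 78.1 and 122 FPKM in untreated wild type, 59.8 and 66.6 FPKM in wild type with LPS, 61.5 and 40.9 FPKM in untreated transgenic and 116 and 117 FPKM in transgenic with LPS. Its interaction of 1.82 (SE 0.37, limma adjusted p = 0.294) was 1.81 with replicate 1 alone and 1.82 with replicate 2 alone. Fkbp5, a co-chaperone of the receptor, had an interaction of 1.26 (SE 0.35), and it was larger with replicate 2 alone (1.48) than with replicate 1 alone (1.03). Cebpd, Dusp1, Per1, Sgk1 and Sds rose in transgenic liver, with interactions of 1.02 to 1.51. The interaction of Per1 was 0.48 without transgenic untreated replicate 2 and 1.56 without transgenic untreated replicate 1. Sgk1, a kinase of sodium transport, was at 101 and 35.2 FPKM in transgenic with LPS, 25.4 and 29.1 FPKM in wild type with LPS and 10.2 to 14.1 FPKM without LPS. Its interaction was 2.19 with transgenic LPS replicate 1 alone and 0.70 with replicate 2 alone.

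The remaining members had smaller or more variable values. Irs2, Nfil3, Pdk4, Angptl4 and G6pc reached 2-fold, and Klf15, Tdo2, Zbtb16, Pck1, Foxo1, Errfi1, Cebpb and Klf9 did not, with interactions of 0.18 to 0.99. Pck1 and G6pc, the gluconeogenic enzymes, had interactions of 0.78 (SE 0.39) and 1.01 (SE 0.42). The count of members that reached 2-fold was 13 without transgenic LPS replicate 1 and 23 without replicate 2, and 17 to 21 without any of the other libraries.

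RefSeq windows were found for 23 of the 27 genes, 33 windows in all. An E-box was in 6 windows (9.88% of promoters of tested genes) and a STAT motif in 4 (7.07%). The cAMP response element was in 2 (2.9%), forkhead in 1 (2.65%), and C/EBP and NF-kB in 0. The glucocorticoid response element was in 1 window (0.329%). That window, shown for this reason, is the fifth of 6 for Sgk1, at chr10:21993640-21993939 on the plus strand. Capitals mark an E-box (CACGTG) and the element, which begins 188 bases before the start.
Sgk1: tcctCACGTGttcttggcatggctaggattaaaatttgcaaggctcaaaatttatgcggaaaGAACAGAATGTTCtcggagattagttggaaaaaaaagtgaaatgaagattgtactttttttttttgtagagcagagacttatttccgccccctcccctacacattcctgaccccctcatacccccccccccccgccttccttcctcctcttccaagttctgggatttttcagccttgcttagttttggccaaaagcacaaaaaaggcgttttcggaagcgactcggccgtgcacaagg

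Several growth arrest genes had large interactions, although their list as a whole was mixed. Of 15 targets of p53 and GADD45 genes tested, 7 reached 2-fold in the higher direction and 0 in the lower, with a median of 0.37. Of all genes, 2.15% and 2.56% did. The interaction was above 0 for 9 of the 15, and none passed over all genes in limma. At an unadjusted p under 0.05, 6 were higher and 1 lower, beside 4.34% and 6.04% of all genes. Without transgenic LPS replicate 1, 4 of the 15 reached 2-fold, and the median ran from 0.17 to 0.66 with 1 library left out at a time. In the list of endoplasmic reticulum and integrated stress 2 of 26 reached 2-fold (median 0.09), as did 2 of 19 immediate early and heat shock genes (median 0.21). Trp53inp1, a stress-induced p53 partner, fell in wild type from 49.7 and 144 FPKM to 17.5 and 21.2 FPKM and rose in transgenic liver from 22.6 and 17.1 FPKM to 160.0 and 47.9 FPKM. Its interaction was 4.18 (SE 0.87, limma adjusted p = 0.299). Gadd45g was at 232 and 75.6 FPKM in transgenic with LPS and at 19.8 to 52.3 FPKM in the other libraries.

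Genes that are higher in female than in male liver formed a small list, of which 14 had values and 6 passed the filter. Of these 6, 5 reached 2-fold in the higher direction, beside 2.15% of all genes, with a median of 2.00. A filter of 5 FPKM left 3. A gene that is low elsewhere can pass the filter through the group where it is high, so the count is only a description. Cux2, a transcription factor of female liver, was at 9.34 and 4.13 FPKM in transgenic with LPS and at 0.0902 to 2.12 FPKM in the other libraries (interaction 3.23, SE 0.61). Cyp17a1, a steroid hydroxylase, was at 197 and 83.0 FPKM in transgenic with LPS and at 36.9 to 119 FPKM elsewhere, so that 1 of these 2 libraries was above all others. Of 27 genes of amino acid catabolism and the urea cycle, 4 reached 2-fold in the higher direction, among them Aass, Cps1 and Asl, and 0 in the lower, with a median of 0.30. The count of 4 became 7 without transgenic LPS replicate 2. Cps1, which commits ammonia to urea, was at 1315 and 1915 FPKM in untreated wild type, 834 and 846 FPKM in wild type with LPS, 918 and 1110.2 FPKM in untreated transgenic and 1812 and 1165 FPKM in transgenic with LPS.

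Much of the size of the interaction rested on transgenic LPS replicate 1. Of the 246 higher genes, 121 reached 2-fold with each transgenic LPS library alone, 107 with replicate 1 alone and not replicate 2, and 18 with replicate 2 alone and not replicate 1. For the 294 lower genes the counts were 139, 136 and 19. Taken over all genes, 363 were 2-fold higher and 542 lower when replicate 1 stood for the group, against 171 and 193 when replicate 2 did. The median interaction of the 246 was 1.78 with replicate 1 and 1.05 with replicate 2, and that of the 294 was -1.69 and -1.04. The difference between the transgenic LPS replicates made up 42.6% of the squared replicate differences over the 540 genes of 2-fold or more, while that between the untreated wild-type replicates made up 32.6%. Over all genes tested these shares were 35.6% and 38.9%, so untreated wild type had the larger one. The 540 were chosen on interactions that these same libraries enter. Leaving out wild type untreated replicate 1 gave 326 higher and 554 lower genes.

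The test turned on which transgenic LPS library was kept. With replicate 1 as the lone transgenic LPS library, limma called 279 genes at a Benjamini-Hochberg adjusted p under 0.05, 122 higher and 157 lower. With replicate 2 as the lone library it called 1 gene. A lone library is assumed to vary like the other groups, and transgenic with LPS was among the most variable groups, so the 279 calls treat all that is particular to replicate 1 as an effect of the group. Of those genes, 260 had the same direction with replicate 2 alone, 83 reached 2-fold there, and 109 were within 0.5 of 0 or had the other sign. Over all genes tested, 171 were 2-fold higher and 193 lower with replicate 2 alone. The interactions from replicates 1 and 2 share all the other libraries, so agreement in direction is partly built in and is not a replication. The gene called with either library was Snora70, a small nucleolar RNA chosen after its values were seen, listed at 0 in untreated wild type and in transgenic LPS replicate 2, at 8.25 and 8.15 FPKM in wild type with LPS, 9.54 and 10.4 FPKM in untreated transgenic and 8.83 FPKM in transgenic LPS replicate 1. The transgenic LPS replicates thus differ in whether it was measured at all.

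**Figure D3:**
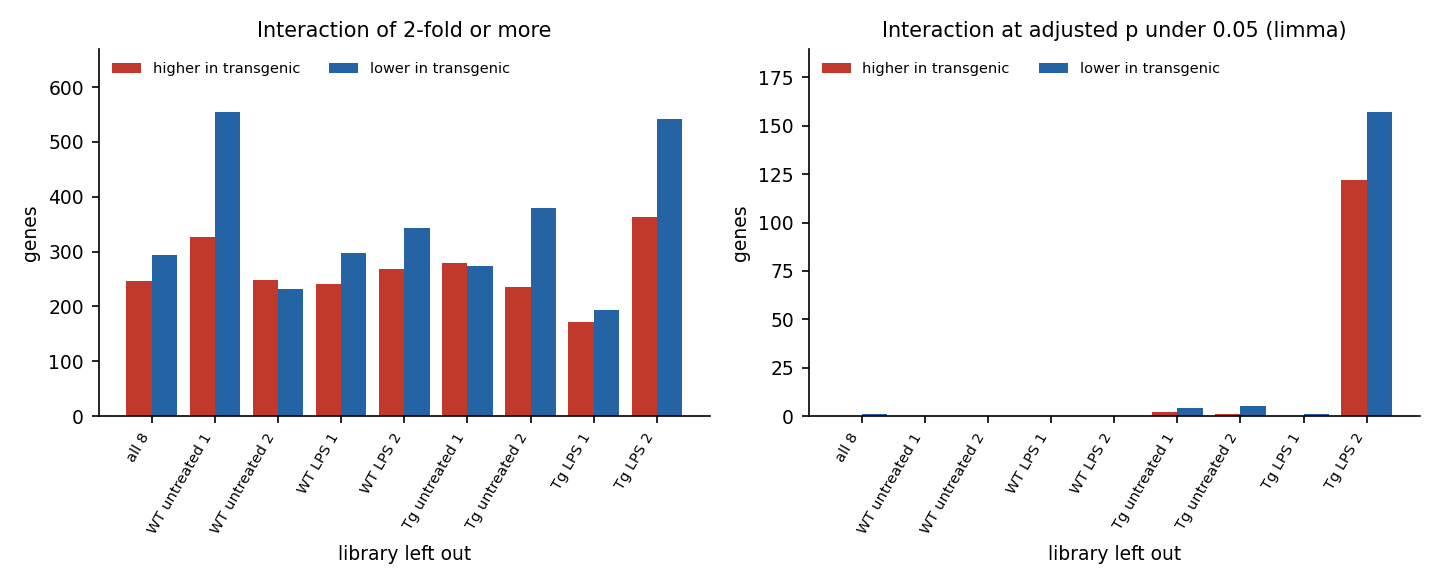
Number of genes with an interaction of 2-fold or more (left) and at a limma adjusted p under 0.05 (right) with all 8 libraries and with each library left out, higher in transgenic in red and lower in blue. The right panel is near 0 except without transgenic LPS replicate 2, where 122 genes are higher and 157 lower.

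Genes were taken as carried by replicate 1 if they reached 2-fold with it alone and were under 0.5 in that direction with replicate 2 alone. Ppp1r3g, a glycogen-targeting subunit of protein phosphatase 1, was at 151.5 FPKM in transgenic LPS replicate 1, at 0.289 FPKM in replicate 2 and at 0.139 to 2.30 FPKM in the other libraries. Fst, the activin antagonist follistatin, was at 33.6 FPKM in replicate 1 and at 1.13 to 2.53 FPKM in the other 7 libraries, and Enc1 was at 63.8 FPKM in replicate 1 and at 2.65 to 3.83 FPKM in the others. Irs2, an insulin receptor substrate, was at 36.7 FPKM in replicate 1 and at 4.41 to 8.58 FPKM in the others. Fam13a and Fam222a had the same shape. That none of these 6 reached 2-fold with replicate 2 alone was set by how they were chosen.

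Among lower genes Leap2, which encodes a hepatic antagonist of the ghrelin receptor, was at 6.34 FPKM in transgenic LPS replicate 1 and 42.3 FPKM in replicate 2, next to 55.3 and 46.1 FPKM in wild type with LPS and 100.2 to 119 FPKM without LPS. Akr1c14, a hydroxysteroid dehydrogenase, was measured at 11.01 FPKM in replicate 1, at 52.8 FPKM in replicate 2 and 76.5 to 139.6 FPKM in the others. Fewer genes were carried by replicate 2. A2m, the alpha-2-macroglobulin gene, was at 1.37 and 14.1 FPKM in transgenic LPS replicates 1 and 2, and a row shared by let-7 microRNA genes was at 46.2 FPKM in replicate 2 and at 1.64 to 3.69 FPKM in the other libraries.

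Genes of cholesterol synthesis and SREBP2 targets were the clearest case of dependence on replicate 1. Of 23 tested, 14 reached 2-fold in the lower direction and 0 in the higher, with a median of -1.17. The median was -2.23 with replicate 1 alone, when 21 of 23 reached 2-fold, and -0.24 with replicate 2 alone, when 0 did. With all 8 libraries, limma gave none of the 23 an interaction with an unadjusted p under 0.05. Hmgcs1, which makes the precursor of mevalonate, was at 17.2 and 18.1 FPKM in untreated wild type, 15.5 and 16.9 FPKM in wild type with LPS, 368 and 336 FPKM in untreated transgenic, and 24.6 and 268 FPKM in transgenic with LPS. Replicate 1 lay near wild type and replicate 2 near untreated transgenic liver.

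The same split was measured across the pathway. Sqle, the squalene epoxidase, was at 126 and 102 FPKM in untreated transgenic, 17.2 FPKM in transgenic LPS replicate 1 and 103 FPKM in replicate 2, with 2.78 to 4.37 FPKM in wild type. Fdft1, squalene synthase, was at 12.2 and 77.9 FPKM in transgenic LPS replicates 1 and 2, and Mvk, mevalonate kinase, was at 4.46 and 22.9 FPKM. The interaction of Ebp, which lay at 63.4 to 113 FPKM in all 8 libraries, was 0.26 (SE 0.26). Summed over the list, the level was 475 to 563 FPKM in the 4 wild-type libraries, 2521 and 2211 FPKM in untreated transgenic, 549 FPKM in replicate 1 and 2162 FPKM in replicate 2.

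**Figure D4:**
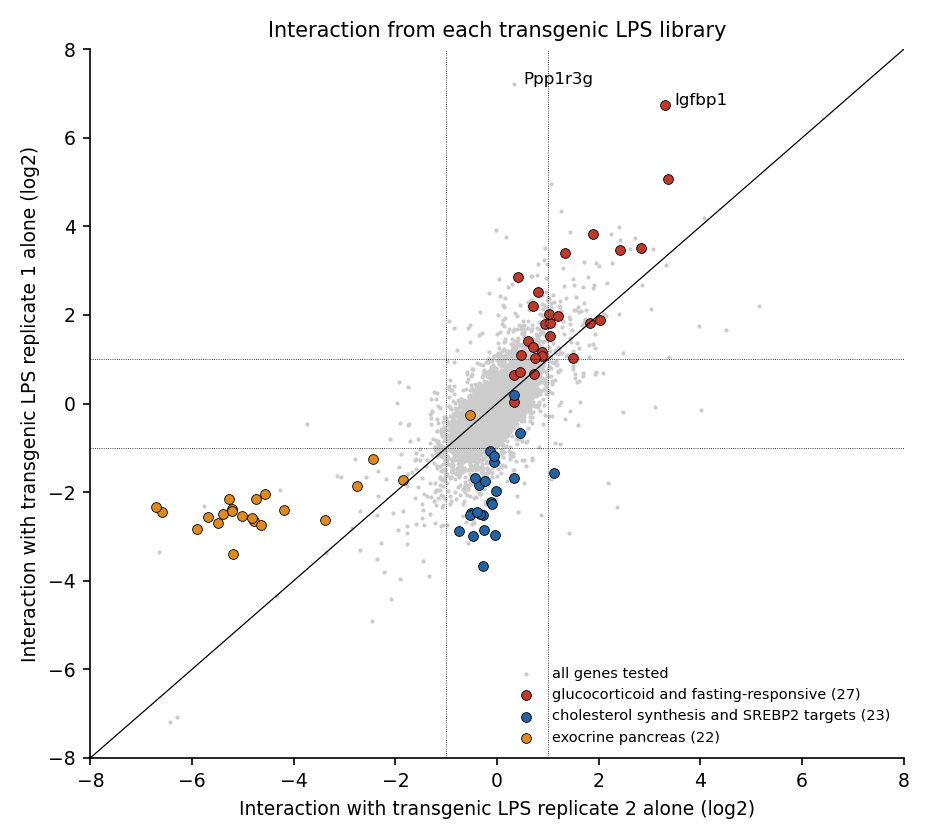
Interaction with transgenic LPS replicate 2 alone (x axis) against replicate 1 alone (y axis), both log2, for the 11463 genes tested, with the line of equality and dotted lines at 2-fold. Genes induced by glucocorticoids and fasting (red) lie above 0 on both axes, cholesterol synthesis genes (blue) are low on the y axis and near 0 on the x axis, and exocrine pancreas genes (orange) are lower on the x axis.

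Exocrine pancreas genes made up 21 of the 294 lower genes and had the largest median interaction of the 34 lists. Of 22 tested, 21 reached 2-fold in the lower direction, 1 with separate responses, and the median was -3.72. Cela2a, a pancreatic elastase, was at 280 and 12.6 FPKM in untreated wild type, 34.2 and 10.7 FPKM in wild type with LPS, 972 and 190 FPKM in untreated transgenic, and 24.98 and 0.470 FPKM in transgenic with LPS. Summed FPKM of the list was 1928 and 116 in untreated wild type, 276 and 106 in wild type with LPS, 7315 and 1541 in untreated transgenic and 197 and 26.7 in transgenic with LPS. The replicates of all 4 groups therefore differed more than 2-fold, and the median interaction ran from -5.47 without wild type untreated replicate 1 to -1.92 without wild type untreated replicate 2. The part of pancreatic tissue in these values was not tested.

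The other lower genes included transcription factors of the hepatocyte. Of 23 hepatocyte genes, 4 reached 2-fold in the lower direction and 0 in the higher, with a median of -0.03: Foxa1, Foxa2, Cebpa and Serpina6, which was chosen after its values were seen. Foxa2 fell in transgenic liver from 19.6 and 20.8 FPKM to 4.38 and 8.15 FPKM, with 9.04 to 19.9 FPKM in wild type (interaction -1.61, SE 0.51). Cebpa fell in transgenic liver from 144 and 120.0 FPKM to 33.5 and 66.2 FPKM, with 57.5 to 127 FPKM in wild type (interaction -1.71, SE 0.58). Serpina6, the corticosteroid-binding globulin, fell in transgenic liver from 26.5 and 18.1 FPKM to 3.79 and 7.36 FPKM, with 18.6 to 55.3 FPKM in wild type (interaction -1.46, SE 0.71). The interaction of Serpina6 was -2.22 without wild type untreated replicate 1 and -0.70 without wild type untreated replicate 2. In whole liver, fewer cells of a type and less RNA per cell cannot be told apart.

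Some genes of detoxification were also lower. Of 18 NRF2 targets and conjugating enzymes, 5 reached 2-fold in the lower direction and Sult1d1 in the higher, and the count of 5 became 1 without transgenic LPS replicate 1, 2 without transgenic untreated replicate 2 and 3 without wild type untreated replicate 1. Of the 18, 14 fell with LPS in transgenic liver, where 26.5% of all genes changed in either direction, and 7 fell in wild type, where 21.6% did. The difference between these counts was not tested. Gclc, the catalytic subunit of glutathione synthesis, fell in transgenic liver from 73.1 and 82.1 FPKM to 13.1 and 23.2 FPKM, and was at 63.7 and 48.8 FPKM in untreated wild type and 40.8 and 36.1 FPKM in wild type with LPS. Its interaction was -1.56 (SE 0.37, limma adjusted p = 0.379). Of 28 PPARalpha targets and genes of fatty acid oxidation, 2 reached 2-fold in the higher and 2 in the lower direction, with a median of -0.19. The higher count was 5 without wild type untreated replicate 1 or wild type LPS replicate 1, 4 without transgenic untreated replicate 2, and 1 without wild type untreated replicate 2 or transgenic untreated replicate 1. Hadhb, a subunit of the mitochondrial trifunctional protein, had the largest interaction of the list, 4.12 (SE 1.97, limma adjusted p = 0.518), from 77.0 and 22.7 FPKM in untreated wild type, 3.91 and 24.4 FPKM in wild type with LPS, 0.956 and 44.7 FPKM in untreated transgenic and 43.6 and 40.1 FPKM in transgenic with LPS. Its replicates lay far apart in all groups but the last, and its interaction was 1.85 without transgenic untreated replicate 1 and 6.40 without transgenic untreated replicate 2. Fgf21, a hepatic hormone of fasting, fell in transgenic liver from 13.7 and 9.29 FPKM to 0.374 and 2.05 FPKM, with 3.09 to 4.19 FPKM in wild type (interaction -2.35, SE 0.49). Fabp1, the liver fatty acid binding protein, fell from 7508 and 6559 FPKM to 875 and 1890.0 FPKM, with 2975 to 5179.9 FPKM in wild type (interaction -2.02, SE 0.54). For Gclc, Fgf21 and Fabp1 replicate 1 was the lower of the transgenic LPS libraries.

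Inflammatory and non-parenchymal lists held few or no interactions of 2-fold on the log2(FPKM + 1) scale. Of 24 macrophage genes, 21 rose with LPS in wild type and 22 in transgenic liver, and 0 had an interaction of 2-fold, with a median of -0.13. Marco, a scavenger receptor of Kupffer cells that was chosen after its values were seen, rose from 9.72 and 1.58 FPKM to 388 and 442 FPKM in wild type and from 8.17 and 3.52 FPKM to 349 and 372 FPKM in transgenic liver (interaction -0.49, SE 0.86). No member reached 2-fold in either direction among 14 neutrophil genes (median -0.49), 11 B and plasma cell genes (median -0.61), 26 endothelial genes (median 0.02) and 31 cell cycle genes (median -0.19). With 1 library left out at a time, at most 3 members of any of these 5 lists did. Of 7 MHC class II genes, 0 had an interaction above 0 and 0 reached 2-fold, but up to 4 were 2-fold lower with 1 library left out. Of 27 interferon-stimulated genes 1 was 2-fold lower, and up to 3 were with 1 library left out. Of 28 cytokine, chemokine and NF-kB genes 2 were 2-fold higher, and up to 6 were with 1 library left out. Of all genes, 2.15% were 2-fold higher and 2.56% lower. All 11 B and plasma cell genes had an interaction below 0, 5 of them at an unadjusted p under 0.05, beside 6.04% of all genes. With a pseudocount of 0.1, which gives low values more weight, 7 of the 11 B and plasma cell genes, 4 of the 14 neutrophil genes and 7 of the 31 cell cycle genes were 2-fold lower. Without both untreated libraries numbered 2, 5 of the 11 B and plasma cell genes were 2-fold lower. Of 42 stellate cell and matrix genes 1 reached 2-fold, Ctgf, the connective tissue growth factor, which rose in both genotypes (interaction 1.23, SE 0.43). An SE of this size leaves room for differences that were not detectable.

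Among acute phase proteins the median interaction was larger with replicate 2 than with replicate 1. Of 26 tested, 2 reached 2-fold in the higher direction (Hamp and Serpina3n) and 0 in the lower, with a median of 0.59, which was 0.16 with replicate 1 alone and 0.69 with replicate 2 alone. The 2-fold count in the higher direction was 8 without transgenic LPS replicate 1, 7 without transgenic untreated replicate 1, 6 without wild type untreated replicate 2 and 1 without transgenic LPS replicate 2. Saa1, a serum amyloid chosen after its values were seen, rose from 198 and 73.4 FPKM to 2735 and 3165 FPKM in wild type and from 108 and 86.5 FPKM to 2308 and 5512 FPKM in transgenic liver (interaction 0.59, SE 0.74). The interaction of Saa1 was -0.12 without wild type untreated replicate 1, 1.30 without wild type untreated replicate 2, 1.22 without transgenic LPS replicate 1 and -0.04 without transgenic LPS replicate 2, so its sign is not settled. Hpx, the haem-binding hemopexin, chosen likewise, rose in both genotypes with an interaction of 0.27 (SE 0.31). Hamp, the iron hormone hepcidin, was at 2098 FPKM in transgenic LPS replicate 1 and 357 FPKM in replicate 2, against 189 to 1128 FPKM in the other libraries.

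**Figure D5:**
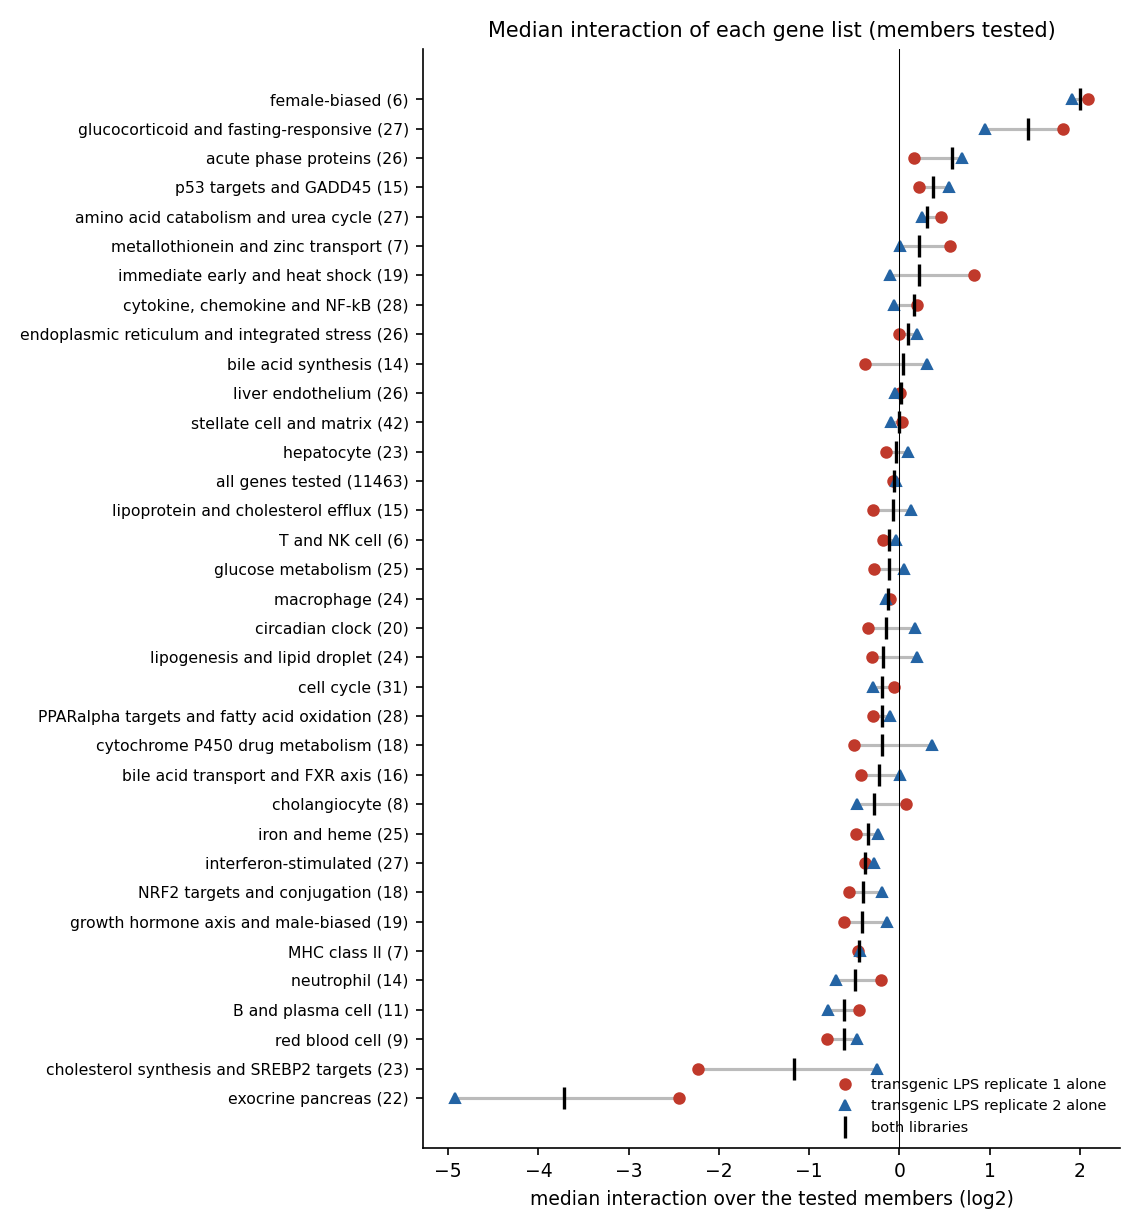
Median interaction over the tested members of each gene list (x axis, log2; number tested in brackets), with both transgenic LPS libraries (bar), replicate 1 alone (circle) and replicate 2 alone (triangle). Glucocorticoid and female-biased lists lie right of 0 with each library, cholesterol synthesis runs from -2.23 to -0.24, and the exocrine pancreas list runs from -2.44 to -4.92.

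No gene of bile acid synthesis had an interaction that passed in limma, and 2 of the 14 were higher and 2 lower at an unadjusted p under 0.05, beside 4.34% and 6.04% of all genes. For Cyp7a1 (chromosome 4, 6265612 to 6275633) the LPS change was -0.55 in wild type and 0.01 in transgenic liver, and the interaction was 0.56 (SE 0.44, limma adjusted p = 0.668, range over 19 alternatives 0.134 to 0.973). Which species the transgene comes from, and if this row counts its reads, was not given in the sources used here. For Apoe the interaction was -0.47 (SE 0.51, limma adjusted p = 0.776). Of 14 genes of bile acid synthesis, 2 reached 2-fold in the higher direction and 1 in the lower. Cyp39a1, an oxysterol hydroxylase, fell in wild type from 48.9 and 45.7 FPKM to 12.002 and 15.3 FPKM, and was at 32.8 and 41.3 FPKM in untreated transgenic and 45.0 and 25.3 FPKM in transgenic with LPS (interaction 1.61, SE 0.38). Nr0b2, the bile acid-induced repressor SHP, was at 5.33 FPKM in transgenic LPS replicate 1, 23.6 FPKM in replicate 2 and 23.3 to 29.0 FPKM in the other libraries.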

How the data were processed

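Values in FPKM for 8 liver libraries were deposited by the authors in 1 table with a column for each library. Per the submitters' processing notes the tools were TopHat2 2.1.0, Bowtie2 2.2.6, Cufflinks and Cuffdiff 2.2.1 with build mm10. The annotation, the filters and how libraries were scaled to each other was not given in the sources used here. Depth is unknown, so no counting interval was attached.

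Of 24545 rows, 6197 were 0 in all libraries. For 492 repeated names the copy with the higher sum was kept, 27 date-like names were kept unnamed, and 549 sets of identical rows (1280 names) were each 1 feature. Features with at least 1 FPKM in 2 of 8 libraries were analysed as log2(FPKM + 1) in limma 3.58.1 (R 4.3.3), with 1 mean per group, a mean-variance trend and 4 residual degrees of freedom. Tests were 2-sided with Benjamini-Hochberg adjustment over 11463 genes and a threshold of 0.05. The fit was tested on simulated data.

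The 34 gene lists (815 entries) and the rules were chosen with earlier results of these data known. Genes named were Cyp7a1 and Apoe; up to 12 per direction that passed or, failing that, had the smallest p among genes of 2-fold with separate responses; the 6 largest per direction carried by transgenic LPS replicate 1 and 3 by replicate 2; and the 3 largest of each list, which gave 140 features. Unnamed models, immunoglobulins and major urinary proteins were left out of that ranking. Another 36 were chosen after their values were seen, among them all further members of the glucocorticoid list, as were 2 further major urinary protein rows. Of the genes so named, 2 are not reported here. Positions are from GENCODE vM21 (GRCm38). Alternatives were other pseudocounts, filters, scalings and moderation, library weights, a replicate block and leaving out each library.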

Additional observations from a re-analysis of the deposited data

Results flagged for a closer look

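The interaction of Mup12 was marked because the LPS changes of the genotypes differed in limma's test of the difference itself (interaction -6.80, SE 0.58, Benjamini-Hochberg adjusted p = 0.0422). It changed by 1.66 with LPS in wild type and by -5.14 in transgenic liver. The untreated transgenic libraries, at 38.2 and 89.9 FPKM, were above the other 6, which were between 0 and 2.76 FPKM. Mup16, another copy, was at 28.8 and 236 FPKM in untreated transgenic liver and listed at 0 in untreated wild type, while Mup1 was listed at 0 in all 4 untreated libraries; both were chosen after their values were seen. How the counting divided reads among these copies was not given in the sources used here, and its part in the value was not tested.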

How the results depend on the processing

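Genes called higher numbered 0 in the main analysis and genes called lower 1. Library quality weights, robust moderation, quantile normalization and no filter each gave 0 lower. The replicate numbers of the labels were checked for pairing. Deviations of same-numbered libraries correlated at 0.0434 to 0.459, all above 0 but not all over 0.1, and the main analysis did not pair them. The value of 0.459 was between untreated wild type and untreated transgenic liver. Whether same-numbered untreated libraries share more than a number was not tested. With the replicate block 1 gene was called higher and 1 lower. With a pseudocount of 0.1, 615 genes were 2-fold lower and 701 were 2-fold with separate responses, against 294 and 419. After each library was rescaled to the same FPKM sum, 446 were 2-fold lower and 265 higher. A filter of 5 FPKM left 780 genes at an unadjusted p under 0.05 and 1379 and 1835 genes changed with LPS in wild type and transgenic liver. Of the 2 alternatives chosen after seeing the data, omitting both untreated libraries numbered 1 gave 462 genes 2-fold lower, 783 with separate responses, 1662 called for LPS in transgenic liver and r = 0.691, and omitting both numbered 2 gave 0 called lower, 686 at an unadjusted p under 0.05, and 1355 and 1483 called for LPS in wild type and transgenic liver. Leaving out 1 library at a time gave 0 to 122 genes called higher and 0 to 157 lower (most without transgenic LPS replicate 2), 556 to 2642 at an unadjusted p under 0.05 (without wild type LPS replicate 1 and wild type untreated replicate 1), 171 to 363 2-fold higher and 327 to 853 with separate responses (without transgenic LPS replicates 1 and 2), 193 to 554 2-fold lower (without transgenic LPS replicate 1 and wild type untreated replicate 1), 1244 to 3438 called for LPS in wild type (without wild type LPS replicate 1 and wild type untreated replicate 1), 1238 to 3629 in transgenic liver (without transgenic untreated replicate 2 and wild type untreated replicate 2) and r of 0.649 to 0.778. Among the results compared, none that passed changed sign under these alternatives.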

Other observations

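The lists of clock genes and of glucose metabolism were not described as lists above, although genes such as Nfil3, Per1, Pck1 and G6pc were named. Of 20 clock genes, 2 reached 2-fold in the higher and 2 in the lower direction, with a median of -0.15, which was -0.35 with transgenic LPS replicate 1 alone and 0.17 with replicate 2 alone. The 2 lower genes became 6 without transgenic LPS replicate 2, 4 without wild type untreated replicate 1 or wild type LPS replicate 2, and 0 without wild type untreated replicate 2. Nfil3, a repressor in the clock that is also in the glucocorticoid and fasting list, was at 23.7 and 6.45 FPKM in transgenic LPS replicates 1 and 2. It was at 4.88 to 18.1 FPKM in the other libraries. Per3, a period gene, was at 3.49 and 13.1 FPKM in the same libraries, next to 13.7 and 12.7 FPKM in wild type with LPS. Its untreated levels were 4.06 to 7.85 FPKM.

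Of 25 genes of glucose metabolism, 1 reached 2-fold in the higher direction and 2 in the lower, and without transgenic LPS replicate 1 the lower count was 0. Pfkfb3, which makes the activator of glycolysis, rose in transgenic liver from 4.16 and 2.58 FPKM to 10.7 and 9.33 FPKM, with 6.63 and 9.30 FPKM in untreated wild type and 5.90 and 4.92 FPKM in wild type with LPS (interaction 1.82, SE 0.32, limma adjusted p = 0.276).

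Metallothioneins bind zinc and copper. Mt1 was at 2189 and 827 FPKM in untreated wild type, 1923 and 1944 FPKM in wild type with LPS, 807 and 245 FPKM in untreated transgenic and 2683 and 1959 FPKM in transgenic with LPS. Its rise in transgenic liver passed (2.36, limma adjusted p = 0.0261), and its interaction of 1.84 (SE 0.85) did not. Cidec, a lipid droplet protein, fell in wild type from 22.5 and 36.4 FPKM to 9.45 and 7.14 FPKM, and was at 27.7 and 36.7 FPKM in untreated transgenic and 47.7 and 18.0 FPKM in transgenic with LPS (interaction 1.57, SE 0.61).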
